A study of Mus musculus with 8 samples.

Results

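The 37 genes described here are 21 enzymes and transporters of glycolysis and 16 genes known as targets or regulators of the response to low oxygen. They were chosen by name, as the probes whose gene name was 1 of the 37, with Pkm2 and Ero1l accepted under their current names Pkm and Ero1a. All 37 were found, on 64 probes, among 27573 gene names on the array. All 37 entered the tests, with 16362 genes tested in all, and 34 were well above background on all 8 arrays. The exceptions were Gapdh and Eno2 among the enzymes and Car9 among the hypoxia genes.

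RNA from mouse salivary gland tissue was measured on 8 Agilent arrays of the 1-colour kind. The tumours are described in the labels as induced by AKT, a kinase that stimulates growth and glucose use, and some had received rapamycin, an inhibitor of the mTOR kinase complex downstream of AKT. The 5 groups were tumour without treatment (2 arrays), tumour after 3 days of rapamycin (1 array), tumour after 14 days of rapamycin (2 arrays), normal parotid gland without treatment (2 arrays) and normal submandibular gland without treatment (1 array). The strain, sex and age of the mice, the AKT allele and the promoter that drove it, the rapamycin dose and the number of animals behind each array are not given in the sources used here. P-values therefore measure the spread between these arrays, and the fit gives the single day 3 and submandibular arrays the spread of the groups that had 2. In the untreated tumour pair and the parotid pair, 1 array held Xist and the other Y-linked transcripts, so those pairs are not repeats of 1 sample. The spread of the day 14 pair may be technical.

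Glycolysis breaks glucose down to pyruvate in the cytosol, and lactate dehydrogenase turns pyruvate into lactate, which leaves the cell through monocarboxylate transporters. Many growing tumours run this route at a high rate even when oxygen is present. The transcription factor HIF-1, whose regulated subunit is Hif1a, binds short DNA motifs near many genes of glycolysis, of acid handling and of blood vessel growth when oxygen falls. AKT and mTOR signalling are known to raise the translation of Hif1a and the uptake of glucose.

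The sequences just upstream of 5 members are shown because they hold the core motif that HIF-1 is known to bind. They cover the 2 members with the largest difference between tumour and parotid, Slc16a3 and Car9, and 3 others that fell at day 14, Ldha, Bnip3 and Pgk1. Each is the 250 bases before an annotated start in RefSeq on GRCm38.p6, with ACGTG or GCGTG on either strand in capitals, so that the reverse complements CACGT and CACGC are capitals too. The palindrome CACGTG, known as an E-box and bound by other factors, counts as 2 overlapping matches.
Slc16a3 (chr11:120948817-120949066, plus strand): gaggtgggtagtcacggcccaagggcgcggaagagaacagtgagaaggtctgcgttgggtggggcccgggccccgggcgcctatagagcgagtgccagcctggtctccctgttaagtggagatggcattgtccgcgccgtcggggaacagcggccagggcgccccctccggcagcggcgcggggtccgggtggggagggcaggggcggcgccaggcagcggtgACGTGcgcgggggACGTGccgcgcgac
Car9 (chr4:43506776-43507025, plus strand): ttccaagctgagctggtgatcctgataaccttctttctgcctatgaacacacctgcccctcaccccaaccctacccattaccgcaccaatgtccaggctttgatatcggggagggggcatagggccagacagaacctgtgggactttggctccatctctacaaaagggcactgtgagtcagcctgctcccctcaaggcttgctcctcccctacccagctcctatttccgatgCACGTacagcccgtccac
Ldha (chr7:46845554-46845803, plus strand): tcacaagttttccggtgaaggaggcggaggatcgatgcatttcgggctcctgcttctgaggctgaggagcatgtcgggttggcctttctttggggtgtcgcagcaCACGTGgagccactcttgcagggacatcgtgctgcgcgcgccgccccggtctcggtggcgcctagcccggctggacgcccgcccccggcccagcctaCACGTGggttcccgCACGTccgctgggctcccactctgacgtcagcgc
Bnip3 (chr7:138909507-138909756, minus strand): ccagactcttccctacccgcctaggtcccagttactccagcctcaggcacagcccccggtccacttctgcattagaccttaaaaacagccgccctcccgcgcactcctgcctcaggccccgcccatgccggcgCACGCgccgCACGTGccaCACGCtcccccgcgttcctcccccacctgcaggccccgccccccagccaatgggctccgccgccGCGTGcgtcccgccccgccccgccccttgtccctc
Pgk1 (chrX:106186850-106187099, plus strand): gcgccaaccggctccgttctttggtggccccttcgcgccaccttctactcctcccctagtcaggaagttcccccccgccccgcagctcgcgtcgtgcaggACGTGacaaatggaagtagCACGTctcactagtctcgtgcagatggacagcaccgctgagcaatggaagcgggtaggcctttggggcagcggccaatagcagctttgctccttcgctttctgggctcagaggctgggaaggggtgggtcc
Among the 36 members with a window in that table, 32 (88.9%) had at least 1 window with ACGTG or GCGTG, against 41.5% of 27025 genes. The motif ACGTG alone was in a window of 22 members (61.1%), against 18.5% of all genes. By role, 18 of 21 enzymes and 14 of 15 hypoxia genes had a match. Gpi1, Tpi1, Eno2 and Car12 had none within these 250 bases. Some genes have several windows and so more chances of a match, and a match is a run of letters, not a measured binding site. The members were chosen by name, some as known targets of the response to low oxygen, so these shares are no test of the list. The 27025 genes were not matched to the members in base composition or in detection on these arrays. Ndrg1 had no window in the table.

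Signals are given as log2 of the processed intensity relative to the 75th percentile of the array, so that 0 is the level of that percentile. Levels of different probes cannot be set against each other, only 1 gene across arrays. The 75th percentile itself was at 931 and 935 in untreated tumours, 725 in the day 3 tumour, 168 and 223 in the day 14 tumours, 364 and 138 in parotid and 266 in submandibular gland, and 43.2% to 58.4% of spots were well above background. Slide 1 held both untreated tumours, 1 parotid and 1 day 14 array, and slide 2 held the other 4. Gene profiles were most alike within the day 14 pair (r = 0.986 across genes, which are not independent replicates), and the day 3 array correlated at 0.966 and 0.962 with those of untreated tumour.

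Cell type markers differed between arrays as well as in the members. The sum of 8 skeletal muscle markers was 0.39 and 0.25 in untreated tumours, 0.62 in the day 3 tumour, 10.41 and 10.44 in the day 14 tumours, 1.44 and 7.08 in parotid and 0.78 in submandibular gland, as log2 signal. All 8 markers were well above background at day 14 and on parotid replicate 2, against 4 of 8 in untreated tumours, at day 3 and on parotid replicate 1, and 2 of 8 in submandibular gland. The 8 acinar markers summed to 6.24 and 6.95 in untreated tumours, 6.58 in the day 3 tumour, 11.84 and 11.98 in the day 14 tumours, 11.79 and 12.74 in parotid and 9.47 in submandibular gland, and the 7 proliferation markers to 6.48 and 6.56 in untreated tumours, 5.93 in the day 3 tumour, 2.32 and 2.34 in the day 14 tumours, 2.81 and 1.46 in parotid and 1.11 in submandibular gland. The 6 granular duct markers, known from submandibular gland in the mouse, summed to −0.19 and 0.10 in untreated tumours, 1.04 in the day 3 tumour, 11.999 and 11.95 in the day 14 tumours, 8.63 and 9.56 in parotid and 11.73 in submandibular gland, so that the day 14 tumours matched the submandibular gland in this sum. The 4 epithelial markers, which define the gland and the tumour, were well above background on every array, with sums between 7.98 and 9.38. Both day 14 arrays held Xist and Y-linked transcripts (Ddx3y at 1.79 and 1.49) well above background, whereas each other array held either Xist or Y-linked transcripts. Xist was held by untreated tumour replicate 2, parotid replicate 1, the day 3 tumour and submandibular gland. Y-linked transcripts were held by untreated tumour replicate 1 and parotid replicate 2. In tissue RNA such as this, fewer cells of a type and less RNA per cell cannot be told apart, and the part of cell makeup in the results that follow was not tested.

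Between untreated tumour and parotid, 20 of the 37 genes passed the test, 19 of them higher in tumour, where 39% of all genes passed (18.3% higher and 20.8% lower). Among the enzymes and transporters 13 rose, 0 fell and 8 did not pass, and among the hypoxia genes 6 rose, 1 fell and 9 did not pass. The median log2 difference was 1.87 for enzymes, or 1.51 with Gapdh at its lower bound, and 0.96 for hypoxia genes, against −0.0051 over all genes tested. With the same test, 23 of the 37 differed between day 14 and untreated tumour, 3 higher and 20 lower, where 47.8% of all genes passed (24.8% higher and 23.1% lower). At day 14, 12 enzymes fell, 1 rose and 8 did not pass, with a median of −1.25, and 8 hypoxia genes fell, 2 rose and 6 did not pass, with a median of −0.85, against 0.045 over all genes. Both comparisons use the same untreated tumour arrays, so their directions are linked. The called members were 54.1% and 62.2% of the 37, above the shares over all genes, and most lay in 1 direction where the calls over all genes were split nearly evenly; no test was made of the list as a whole.

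**Figure D1:**
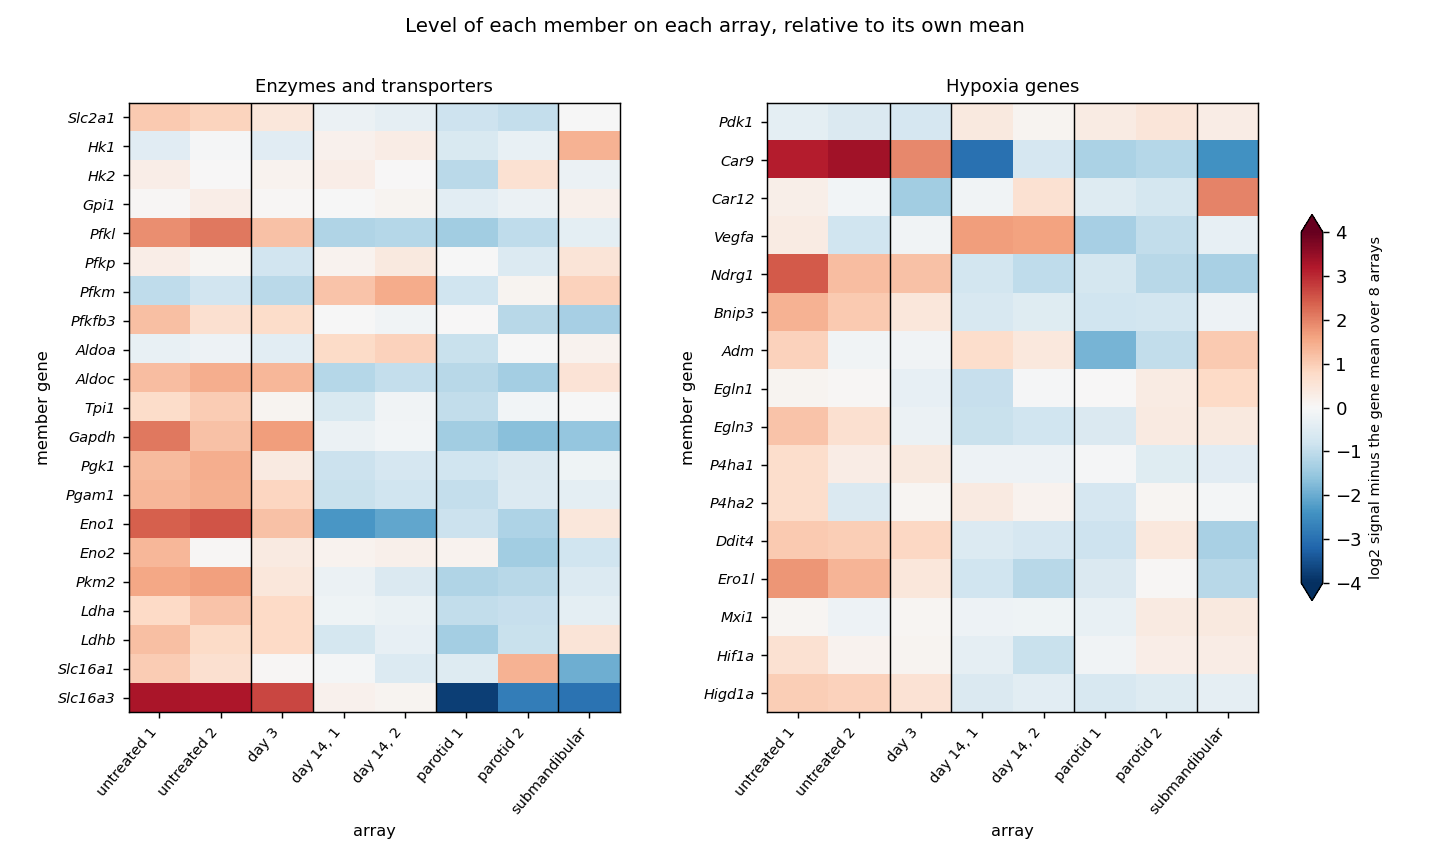
Colour shows the log2 signal of each of the 37 genes (rows) on each of the 8 arrays (columns), minus that gene's mean over the 8 arrays, with the colour scale limited to −4 and 4. Most enzymes and many hypoxia genes are red in the untreated tumours and at day 3 and pale or blue at day 14 and in parotid, while Pfkm, Aldoa and Vegfa are red at day 14.

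On slide 1, which held arrays of all 3 groups, the 20 genes that differed between untreated tumour and parotid and the 23 that differed at day 14 kept their direction (medians over the 37 of 1.60 and −1.14). With slide as a fixed block in the whole fit, 20 members passed in each comparison. On that slide parotid and day 14 had 1 array each, so the directions there have no replicate check.

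Glucose enters the cell through carriers and is trapped and split in the upper part of glycolysis. Slc2a1 (GLUT1), the glucose carrier of many dividing cells, was at 4.19 and 4.04 in untreated tumours, 3.59 in the day 3 tumour, 2.89 and 2.77 in the day 14 tumours, 2.31 and 2.18 in parotid and 3.14 in submandibular gland. Its levels were separate in all 3 replicated groups, highest in untreated tumour and lowest in parotid. Slc2a1 was higher by 1.87 ± 0.19 on the log2 scale in untreated tumour than in parotid (SE, 2 arrays against 2, adjusted p = 0.000903), and fell by 1.29 ± 0.19 at day 14 relative to untreated tumour (adjusted p = 0.00285). The kinases that trap glucose did not pass either test. On its brightest probe Hk1 differed by 0.19 between tumour and parotid and by 0.50 between day 14 and untreated tumour. The other Hk1 probes that passed the filter went the other way at day 14, by −0.57, −1.04 and −0.38. Hk2 differed by 0.36 and −0.00 in the same comparisons. Gpi1, the isomerase of the next step, differed by 0.48 and −0.09.

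Phosphofructokinase, the committed step, has 3 genes named for liver, muscle and platelet, and they did not move alike. Pfkl, the liver form, was at 4.37 and 4.62 in untreated tumours, 3.69 in the day 3 tumour, 1.31 and 1.36 in the day 14 tumours, 1.13 and 1.504 in parotid and 2.14 in submandibular gland. The untreated tumours and the day 3 array lay above all others, and day 14 overlapped with parotid. Pfkl was higher by 3.18 ± 0.22 in untreated tumour than in parotid (adjusted p = 0.000304) and fell by 3.16 ± 0.22 at day 14 (adjusted p = 0.000313). Pfkm, the muscle form, was at 2.90 and 3.16 in untreated tumours, 2.87 in the day 3 tumour, 5.07 and 5.42 in the day 14 tumours, 3.15 and 4.04 in parotid and 4.86 in submandibular gland. It rose by 2.21 ± 0.33 at day 14 (adjusted p = 0.00312), with both day 14 arrays above all others, and differed by −0.56 between tumour and parotid without passing the test (adjusted p = 0.221). The skeletal muscle markers summed to 10.41 and 10.44 at day 14, 1.44 and 7.08 in parotid and 0.78 in submandibular gland, and their part in the Pfkm values was not tested. Pfkp, the platelet form, was between −0.77 and 0.49 on all 8 arrays on its brightest probe and passed neither test. At day 14 that probe differed by 0.10 from untreated tumour. Another probe, well above background on all 8 arrays, differed by 1.02, and a dimmer probe by 1.32. Between untreated tumour and parotid the probes differed by 0.46, −0.34 and −0.95 in that order.

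Pfkfb3, which makes the activator of phosphofructokinase, was at 3.32 and 2.75 in untreated tumours, 2.85 in the day 3 tumour, 2.10 and 1.99 in the day 14 tumours, 2.12 and 1.02 in parotid and 0.78 in submandibular gland. Pfkfb3 was higher by 1.46 ± 0.40 in untreated tumour than in parotid (adjusted p = 0.0299), and its difference of −0.99 at day 14 did not pass (adjusted p = 0.0822). Without untreated tumour replicate 1 or 2 the difference from parotid did not pass (adjusted p = 0.156 and 0.0628), nor did it with slide as a fixed block (1.16, adjusted p = 0.0696). The aldolases split the sugar and also diverged. Aldoc, the form known from brain, was at 2.52 and 2.73 in untreated tumours, 2.62 in the day 3 tumour, 0.15 and 0.32 in the day 14 tumours, 0.19 and −0.08 in parotid and 1.82 in submandibular gland. The tumours without treatment and at day 3 lay between 2.52 and 2.73, all above the other arrays. Aldoc was higher by 2.57 ± 0.22 in untreated tumour than in parotid (adjusted p = 0.000558) and fell by 2.39 ± 0.22 at day 14 (adjusted p = 0.000658).

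Aldoa, the form known from muscle and many other tissues, was at 8.33 and 8.43 in untreated tumours, 8.21 in the day 3 tumour, 9.41 and 9.57 in the day 14 tumours, 7.74 and 8.63 in parotid and 8.79 in submandibular gland. Day 14 had the 2 highest values, and the difference of 1.11 ± 0.38 from untreated tumour just missed the threshold (adjusted p = 0.0526); it passed under quantile normalization and under several other settings. Tpi1, which interconverts the products of that split, was at 6.77 and 7.06 in untreated tumours, 6.13 in the day 3 tumour, 5.43 and 5.90 in the day 14 tumours, 5.06 and 5.93 in parotid and 6.03 in submandibular gland. Tpi1 was higher by 1.42 ± 0.35 in untreated tumour than in parotid (adjusted p = 0.0227) and fell by 1.25 ± 0.35 at day 14 (adjusted p = 0.0283), although parotid replicate 2 lay close to day 14 and submandibular gland. Tpi1 did not pass against parotid without either untreated tumour (adjusted p = 0.0788 and 0.127), nor at day 14 without any 1 of the 4 arrays (adjusted p from 0.0772 to 0.172).

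The lower part of glycolysis yields ATP and pyruvate, and its members other than Eno2 fell at day 14. Gapdh, the oxidising step, was measured by 1 probe designed on a cDNA clone (chr6:125127708-125127767 on mm8) and was well above background only on the untreated tumour and day 3 arrays. Gapdh was at −1.53 and −2.46 in untreated tumours, −1.97 in the day 3 tumour, −3.86 and −3.75 in the day 14 tumours, −5.03 and −5.32 in parotid and −5.17 in submandibular gland. The untreated and day 3 tumours lay above all other arrays. The signal of this probe was at least 2.85-fold higher in untreated tumour than in parotid (adjusted p = 0.00363). It was at least 2.64-fold lower at day 14 than in untreated tumour (adjusted p = 0.0220). With normexp background correction neither difference passed (0.80, adjusted p = 0.361, and −0.49, adjusted p = 0.577), and the call at day 14 was also lost without untreated tumour replicate 1 or either day 14 array (adjusted p from 0.0981 to 0.16). Folds given as "at least" use for the dim group the lowest signal that counted as well above background on its arrays, or the probe's own signal if higher. Gapdh and several other glycolytic genes have near-identical copies in the mouse genome, and the probes were not checked against them. Whether this probe reads the main Gapdh transcript was not checked either, so its values may not give the level of that transcript.

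Pgk1, the first ATP-yielding enzyme, was at 6.55 and 6.76 in untreated tumours, 5.64 in the day 3 tumour, 4.43 and 4.63 in the day 14 tumours, 4.51 and 4.71 in parotid and 5.12 in submandibular gland. Day 14 and parotid overlapped, and the day 3 array lay between untreated tumour and day 14. Pgk1 was higher by 2.04 ± 0.21 in untreated tumour than in parotid (adjusted p = 0.00107) and fell by 2.13 ± 0.21 at day 14 (adjusted p = 0.000822). Pgam1, a phosphoglycerate mutase, was at 6.46 and 6.54 in untreated tumours, 5.9995 in the day 3 tumour, 4.25 and 4.34 in the day 14 tumours, 4.18 and 4.58 in parotid and 4.74 in submandibular gland. It had the same order of groups, with 2.12 ± 0.22 between untreated tumour and parotid (adjusted p = 0.00103) and −2.20 ± 0.22 between day 14 and untreated tumour (adjusted p = 0.000811).

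Eno1, the enolase of most tissues, was at 2.89 and 3.02 in untreated tumours, 1.66 in the day 3 tumour, −1.84 and −1.58 in the day 14 tumours, −0.37 and −0.73 in parotid and 0.95 in submandibular gland. Its day 14 values were the lowest of the series, below both parotid arrays. Eno1 was higher by 3.51 ± 0.25 in untreated tumour than in parotid (adjusted p = 0.000339), and the fall at day 14 (−4.67 ± 0.25, adjusted p = 0.000179) exceeded the fitted fall of each other enzyme. Eno2, the form known from neurons, was well above background on 6 of 8 arrays, ranged from −3.75 to −1.01 and passed neither test. Pkm2, pyruvate kinase, was at 5.05 and 5.17 in untreated tumours, 3.98 in the day 3 tumour, 3.28 and 2.95 in the day 14 tumours, 2.33 and 2.40 in parotid and 2.98 in submandibular gland. The day 3 value was below both untreated tumours and above all arrays of the other groups. Pkm2 was higher by 2.75 ± 0.20 in untreated tumour than in parotid (adjusted p = 0.000363) and fell by 1.99 ± 0.20 at day 14 (adjusted p = 0.000835).

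Ldha, the lactate dehydrogenase subunit known for making lactate, was at 6.73 and 7.06 in untreated tumours, 6.73 in the day 3 tumour, 5.76 and 5.66 in the day 14 tumours, 4.94 and 4.99 in parotid and 5.52 in submandibular gland. On this probe, the brighter of 2, day 3 was level with the lower of the untreated tumours, and day 14 lay between untreated tumour and parotid. The other Ldha probe, also well above background on all 8 arrays, was at 7.14 and 7.47 in untreated tumours and 6.10 at day 3. Its differences were larger, at 3.27 between untreated tumour and parotid, −1.20 at day 3 and −2.95 at day 14, both against untreated tumour. Ldha was higher by 1.94 ± 0.22 in untreated tumour than in parotid (adjusted p = 0.00148) and fell by 1.19 ± 0.22 at day 14 (adjusted p = 0.00690). Ldhb, the other main subunit, was at 6.59 and 6.16 in untreated tumours, 6.18 in the day 3 tumour, 4.69 and 5.05 in the day 14 tumours, 4.01 and 4.49 in parotid and 5.89 in submandibular gland. It moved in the same directions, by 2.12 ± 0.28 in untreated tumour against parotid (adjusted p = 0.00237) and by −1.505 ± 0.28 at day 14 against untreated tumour (adjusted p = 0.00679). At day 14 the call of Ldha was lost without either day 14 array or untreated tumour replicate 2 (adjusted p from 0.0527 to 0.0747), and that of Ldhb without day 14 replicate 1 or untreated tumour replicate 1 (adjusted p = 0.0642 and 0.0542).

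Slc16a3 (MCT4), a lactate exporter, was at 5.89 and 5.86 in untreated tumours, 5.30 in the day 3 tumour, 2.81 and 2.75 in the day 14 tumours, −1.13 and −0.12 in parotid and −0.33 in submandibular gland. The normal glands were all at or below −0.12 and the untreated and day 3 tumours at or above 5.30, with day 14 between them. The difference of 6.504 ± 0.34 between untreated tumour and parotid (adjusted p = 0.000144) was the highest among the members, and Slc16a3 fell by 3.098 ± 0.34 at day 14 (adjusted p = 0.00105). It was still 3.41 ± 0.34 higher at day 14 than in parotid (adjusted p = 0.00685). Slc16a1 (MCT1), which carries lactate both ways, ranged from −0.15 to 1.75 in parotid alone and passed neither main test.

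**Figure D2:**
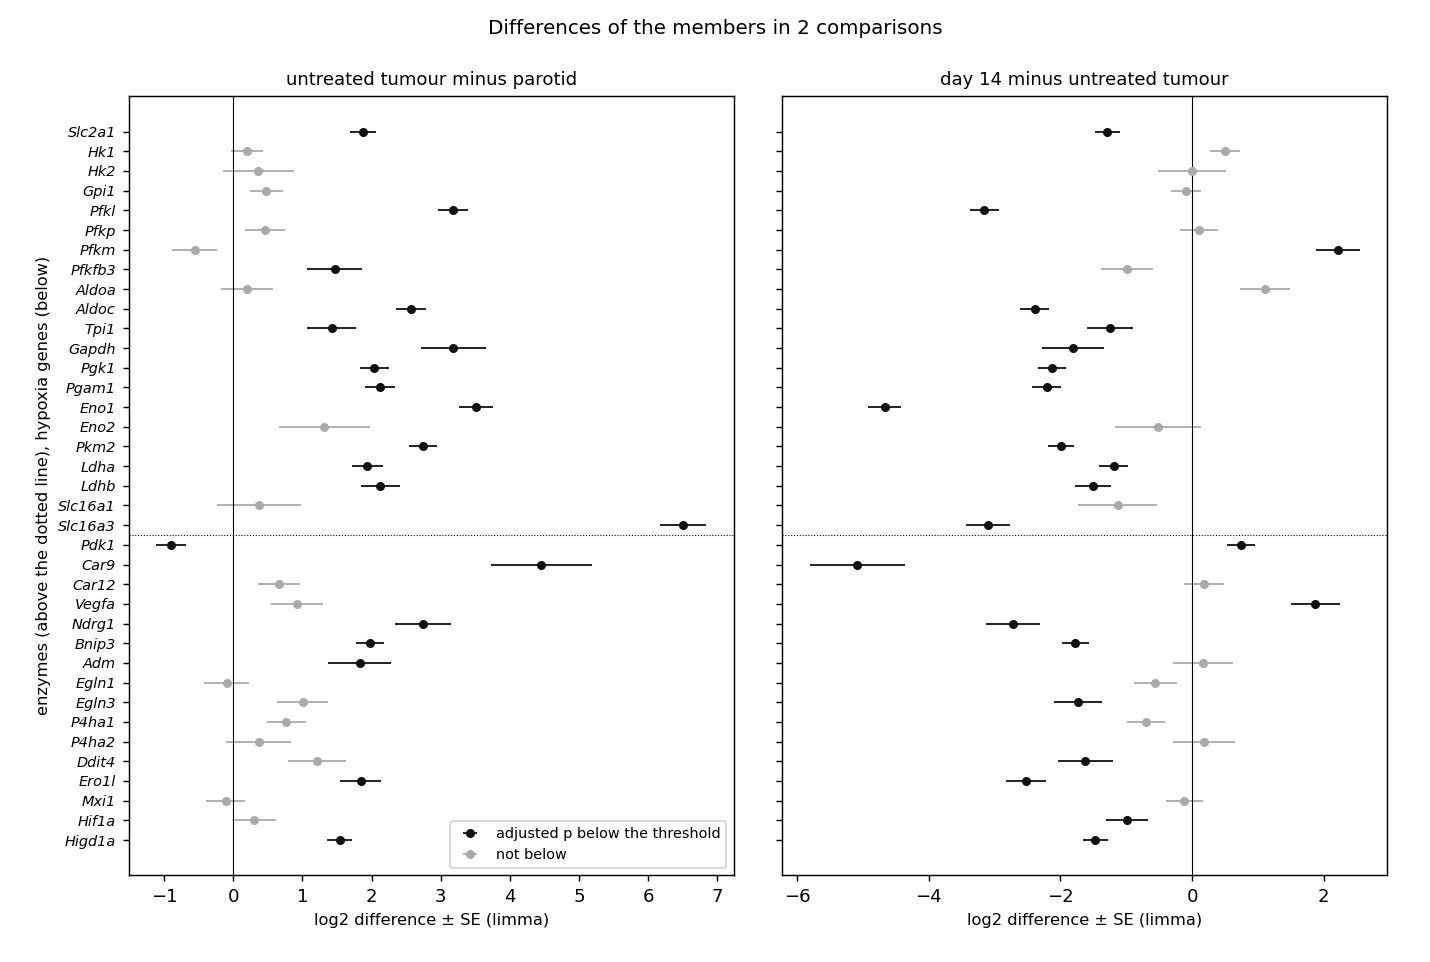
Points are the log2 differences of the 37 genes in untreated tumour minus parotid (left) and day 14 minus untreated tumour (right), with bars of 1 standard error from the limma fit. Black points have an adjusted p below 0.05 over all 16362 genes. Most black points lie right of 0 in the left panel and left of 0 in the right panel, with Pdk1 on the opposite side in both and Pfkm and Vegfa to the right of 0 at day 14.

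Of 31 other tested genes of glycolysis and linked routes (36 were listed), 8 were higher and 6 lower in untreated tumour than in parotid (45.2% called, against 39% of all genes), and 12 were higher and 9 lower at day 14 than in untreated tumour (67.7%, against 47.8%). The 3 called genes with the largest differences at day 14 were Pgam2, Slc2a4 and Eno3. Slc2a4 (GLUT4), the insulin-responsive glucose carrier of muscle and fat, was at −2.00 and −2.17 in untreated tumours, 0.02 in the day 3 tumour, 5.51 and 5.31 in the day 14 tumours, 1.69 and 2.90 in parotid and 4.75 in submandibular gland. It fell by 4.38 ± 0.39 in untreated tumour relative to parotid (adjusted p = 0.000638) and rose by 7.50 ± 0.39 at day 14 relative to untreated tumour (adjusted p = 0.000179). Eno3, the enolase of muscle, was at 1.27 and 2.97 in untreated tumours, 3.54 in the day 3 tumour, 6.85 and 6.64 in the day 14 tumours, 2.56 and 3.80 in parotid and 0.69 in submandibular gland, and rose by 4.62 ± 0.62 at day 14 (adjusted p = 0.00215). Pgam2, the muscle mutase, was well above background only at day 14 and on parotid replicate 2, and was at least 1287-fold higher at day 14 than in untreated tumour (adjusted p = 0.00418). Those 3 arrays are also the ones with all 8 muscle markers above background, with sums of 10.41, 10.44 and 7.08. The 5 adipocyte markers summed to 4.56 and 3.76 in untreated tumours, 6.47 in the day 3 tumour, 8.13 and 7.92 in the day 14 tumours, 5.68 and 7.71 in parotid and 4.95 in submandibular gland. The part of muscle and fat cells in these differences was not tested. Fbp2, known as the fructose bisphosphatase of muscle, was chosen here after its values were seen. It was well above background on all 8 arrays, and the part of muscle cells in its values was not tested. It was at 0.79 and 1.56 in untreated tumours, 0.68 in the day 3 tumour, −0.99 and −0.99 in the day 14 tumours, −0.24 and 0.32 in parotid and 0.96 in submandibular gland, and fell by 2.16 ± 0.35 at day 14 (adjusted p = 0.00403).

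**Figure D3:**
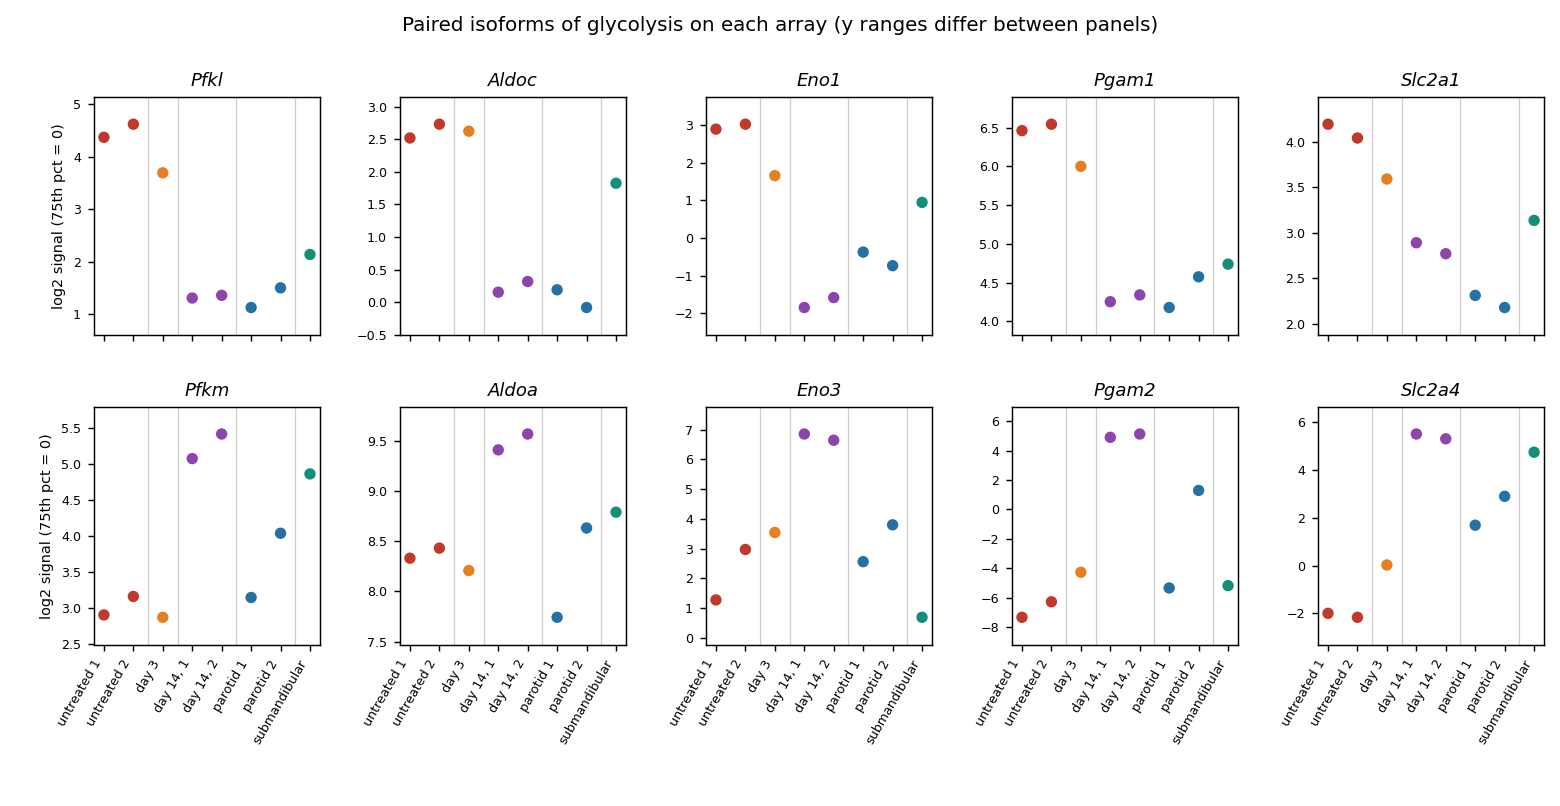
Each panel shows the log2 signal of 1 gene on the 8 arrays, relative to the 75th percentile of the array, with a separate y range for each panel. The upper row holds genes that were highest in untreated tumours, and the lower row holds, for the same step, Pfkm, Aldoa, Eno3, Pgam2 and Slc2a4, each highest at day 14.

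Slc16a7 (MCT2), another monocarboxylate carrier, fell by 4.52 ± 0.23 in untreated tumour relative to parotid (adjusted p = 0.000140). Fbp1, which reverses the phosphofructokinase step in gluconeogenesis, was at 3.33 and 4.46 in untreated tumours, 4.57 in the day 3 tumour, −0.46 and −0.40 in the day 14 tumours, −0.32 and −0.37 in parotid and −0.54 in submandibular gland. All 3 arrays of untreated and day 3 tumour lay above 3, and the others below 0. Fbp1 was higher by 4.24 ± 0.37 in untreated tumour than in parotid (adjusted p = 0.000602).

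Among the hypoxia genes, Car9, Bnip3, Higd1a, Ndrg1 and Ero1l were higher in untreated tumour than in parotid and fell at day 14. Car9, a membrane carbonic anhydrase of hypoxic cells, was at 1.17 and 1.37 in untreated tumours, −0.05 in the day 3 tumour, −4.97 and −2.66 in the day 14 tumours, −3.25 and −3.12 in parotid and −4.40 in submandibular gland. The untreated and day 3 tumours were all at or above −0.05 and the other arrays all at or below −2.66, of which 1 day 14 and 1 parotid array were well above background. Car9 was higher by 4.46 ± 0.73 in untreated tumour than in parotid (adjusted p = 0.00512) and fell by 5.08 ± 0.73 at day 14 (adjusted p = 0.00267), both with uncertain size because of the dim arrays. Car12, its relative, passed neither test and was highest in submandibular gland, at 4.24.

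Bnip3, a mitochondrial protein of mitophagy and cell death, was at 4.18 and 3.84 in untreated tumours, 3.26 in the day 3 tumour, 2.16 and 2.31 in the day 14 tumours, 2.00 and 2.06 in parotid and 2.61 in submandibular gland. Bnip3 was higher by 1.97 ± 0.21 in untreated tumour than in parotid (adjusted p = 0.00105) and fell by 1.77 ± 0.21 at day 14 (adjusted p = 0.00130). Higd1a, a small mitochondrial protein induced by hypoxia, was at 3.90 and 3.83 in untreated tumours, 3.48 in the day 3 tumour, 2.32 and 2.48 in the day 14 tumours, 2.27 and 2.39 in parotid and 2.55 in submandibular gland. It differed by 1.54 ± 0.19 and −1.47 ± 0.19 in the same comparisons (adjusted p = 0.00173 and 0.00171). For both genes, the untreated and day 3 tumours lay above all other arrays.

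Pdk1, the kinase that keeps pyruvate out of mitochondria, gave opposed results on its 2 probes. The brighter probe, designed on a cDNA clone (chr2:71704602-71704661 on mm8), was at 1.65 and 1.45 in untreated tumours, 1.36 in the day 3 tumour, 2.44 and 2.15 in the day 14 tumours, 2.38 and 2.53 in parotid and 2.34 in submandibular gland. On it Pdk1 fell by 0.90 ± 0.21 in untreated tumour relative to parotid (adjusted p = 0.0189) and rose by 0.74 ± 0.21 at day 14 (adjusted p = 0.0295). The probe designed on the RefSeq transcript (chr2:71702470-71702529 on mm8) was at 0.82 and 0.75 in untreated tumours, 0.35 in the day 3 tumour, −0.72 and −0.76 in the day 14 tumours, 0.34 and −0.24 in parotid and −0.23 in submandibular gland. It thus differed by 0.73 between untreated tumour and parotid and by −1.52 between day 14 and untreated tumour, the direction of most other members, so no direction is settled for this gene. On the brighter probe the calls were also lost when 1 array was left out, for both untreated tumours against parotid (adjusted p = 0.0826 and 0.139) and for any of the 4 arrays at day 14 (adjusted p from 0.0714 to 0.19). Of 17 members with several probes that passed the filter, the probes of 14 had 1 direction in each of these comparisons, and the others were Egln1, Pdk1 and Pfkp between tumour and parotid and Car12, Hk1 and Pdk1 at day 14.

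Ndrg1, a stress-induced gene strongly raised by hypoxia in many cells, was at 4.59 and 3.39 in untreated tumours, 3.31 in the day 3 tumour, 1.403 and 1.15 in the day 14 tumours, 1.45 and 1.05 in parotid and 0.85 in submandibular gland. Ndrg1 was higher by 2.74 ± 0.41 in untreated tumour than in parotid (adjusted p = 0.00363) and fell by 2.72 ± 0.41 at day 14 (adjusted p = 0.00319). Day 14 and parotid overlapped for Ndrg1. Ero1l, which reoxidises the enzyme that forms disulfide bonds in the endoplasmic reticulum, was at 3.21 and 2.79 in untreated tumours, 1.88 in the day 3 tumour, 0.64 and 0.32 in the day 14 tumours, 0.85 and 1.47 in parotid and 0.32 in submandibular gland. Ero1l was higher by 1.84 ± 0.30 in untreated tumour than in parotid (adjusted p = 0.00512) and fell by 2.52 ± 0.30 at day 14 (adjusted p = 0.00140). The collagen prolyl hydroxylase subunits P4ha1 and P4ha2 passed neither test. They differed by 0.77 and 0.37 between untreated tumour and parotid and by −0.71 and 0.18 between day 14 and untreated tumour. A dimmer P4ha1 probe, well above background on 5 arrays, differed by 1.30 and −1.65 in these comparisons. With the mean of a gene's probes P4ha1 passed in both.

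The secreted factors of the list departed from that pattern. Vegfa, the growth factor of blood vessels, was at 3.53 and 2.41 in untreated tumours, 3.07 in the day 3 tumour, 4.86 and 4.81 in the day 14 tumours, 1.88 and 2.22 in parotid and 2.87 in submandibular gland. Both day 14 arrays lay above all others, and Vegfa rose by 1.87 ± 0.37 at day 14 relative to untreated tumour (adjusted p = 0.00879), while the difference of 0.92 between untreated tumour and parotid did not pass (adjusted p = 0.0978). All 3 Vegfa probes were higher at day 14, by 1.87, 1.31 and 2.51, but without either day 14 array the call was lost (adjusted p = 0.0583 and 0.0655). Flt1, a receptor of Vegfa, rose by 3.11 ± 0.41 at day 14 (adjusted p = 0.00208). The 5 endothelial markers summed to 3.61 and 3.60 at day 14, against 1.11 and 0.13 in untreated tumours. Of the 5, 3 and 4 were well above background at day 14, against 4 and 4 in untreated tumours. Vwf was the brightest at day 14, at 3.105 and 3.173 against −0.595 and −1.928. Kdr, Cdh5 and the dim Tek were also higher at day 14, whereas Pecam1 was at −3.66 and −3.62 against −3.60 and −4.26. The part of endothelial cells in these values was not tested. Adm, a vessel-dilating peptide, was at 0.85 and −0.21 in untreated tumours, −0.21 in the day 3 tumour, 0.64 and 0.33 in the day 14 tumours, −1.93 and −1.08 in parotid and 0.97 in submandibular gland, with parotid lowest. Adm was higher by 1.83 ± 0.46 in untreated tumour than in parotid (adjusted p = 0.0233) and differed by only 0.16 at day 14 (adjusted p = 0.789). Without untreated tumour replicate 1, Adm did not pass against parotid (adjusted p = 0.127).

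Of the regulators, Hif1a itself did not pass between untreated tumour and parotid (0.30 ± 0.32, adjusted p = 0.484). It was at 1.13 and 0.66 in untreated tumours, 0.64 in the day 3 tumour, 0.17 and −0.36 in the day 14 tumours, 0.38 and 0.81 in parotid and 0.82 in submandibular gland, and fell by 0.99 ± 0.32 at day 14 (adjusted p = 0.0421). That call was lost without any 1 of the 4 arrays (adjusted p from 0.076 to 0.224) and with slide as a fixed block (adjusted p = 0.0927). The oxygen-sensing hydroxylase Egln3, which is also a HIF target, was at 2.08 and 1.56 in untreated tumours, 0.69 in the day 3 tumour, 0.04 and 0.12 in the day 14 tumours, 0.35 and 1.28 in parotid and 1.33 in submandibular gland. It fell by 1.74 ± 0.36 at day 14 (adjusted p = 0.0103), a call lost without either day 14 array or untreated tumour replicate 1 (adjusted p from 0.0618 to 0.0715). Its difference of 1.00 between untreated tumour and parotid did not pass (adjusted p = 0.0712). Egln1, the main hydroxylase of that kind, was between 0.11 and 1.81 on its brighter probe and passed neither test. Its dimmer probe, well above background on 6 arrays, was at −1.97 and −2.18 in untreated tumours and −3.97 and −3.52 at day 14. That is a difference of −1.67, and with the mean of a gene's probes Egln1 passed at day 14.

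Ddit4 (REDD1), an inhibitor of mTOR complex 1 that hypoxia induces, was at 7.61 and 7.54 in untreated tumours, 7.39 in the day 3 tumour, 6.03 and 5.89 in the day 14 tumours, 5.74 and 6.99 in parotid and 5.28 in submandibular gland. It fell by 1.62 ± 0.41 at day 14 (adjusted p = 0.0205), and parotid replicate 2 lay between day 14 and the tumours. Without any 1 of the 4 arrays of that comparison Ddit4 no longer passed, with adjusted p-values of 0.0876 to 0.114. Mxi1, an antagonist of Myc, was within 0.90 to 1.57 on all arrays. The mRNA level of Hif1a bears only on transcript amount, since the protein is known to be controlled by degradation.

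**Figure D4:**
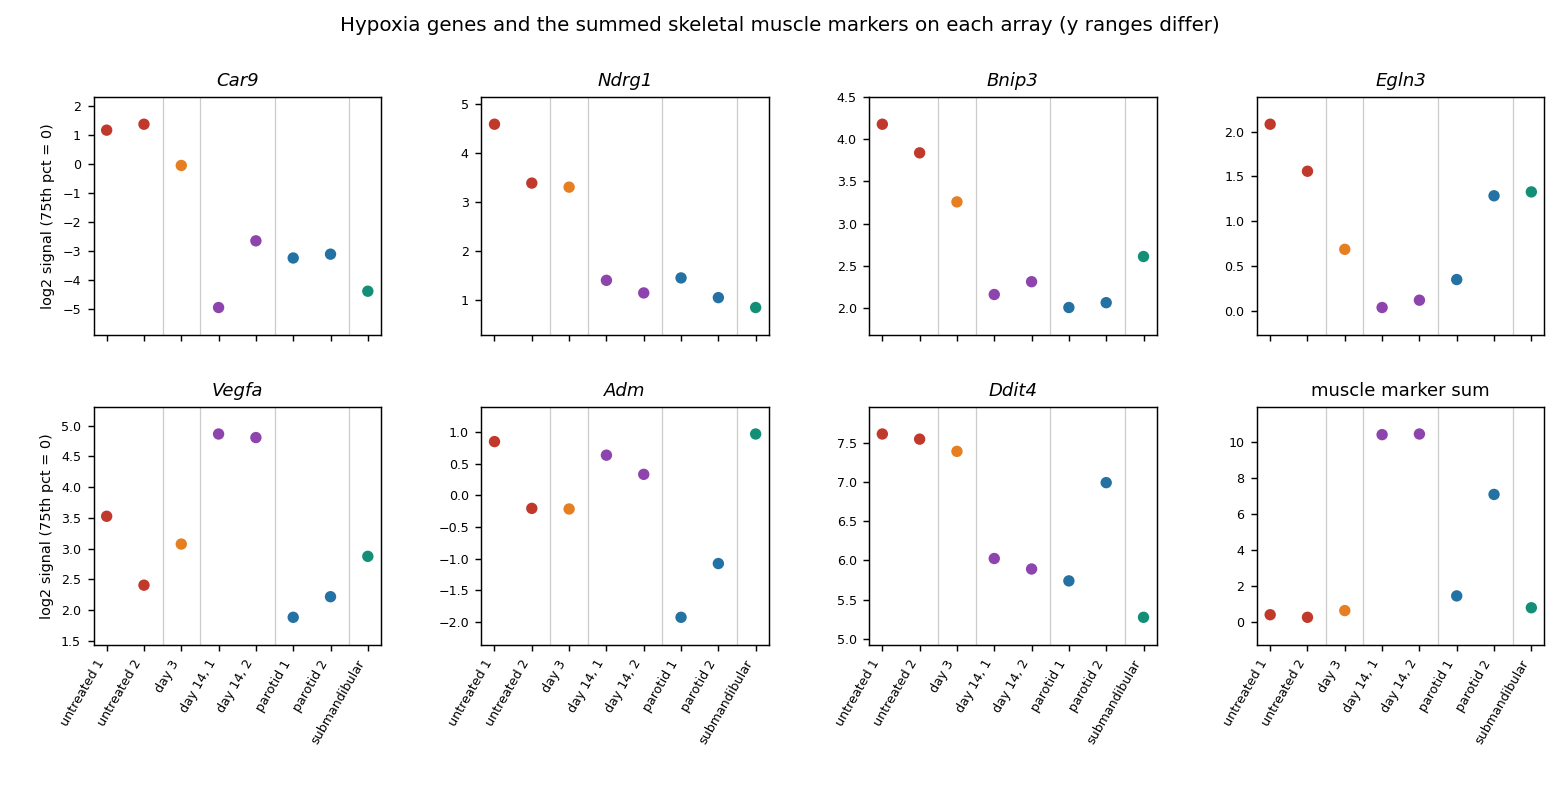
Panels show the log2 signal of 7 hypoxia genes, and of the summed skeletal muscle markers (lower right), on the 8 arrays relative to the 75th percentile, each with its own y range. Car9, Ndrg1 and Bnip3 are high in untreated and day 3 tumours, Vegfa is highest at day 14, and the muscle sum is high at day 14 and on parotid replicate 2.

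Of 35 other tested genes of the hypoxia pathway (37 were listed), 9 were higher and 7 lower in untreated tumour than in parotid (45.7% called, against 39% of all genes), and 6 were higher and 11 lower at day 14 than in untreated tumour (48.6%, against 47.8%). Both shares were near those over all genes. Nampt, an enzyme of NAD synthesis, was at 4.003 and 3.84 in untreated tumours, 3.44 in the day 3 tumour, 0.63 and 0.53 in the day 14 tumours, 0.95 and 1.11 in parotid and 0.81 in submandibular gland. Nampt was higher by 2.89 ± 0.20 in untreated tumour than in parotid (adjusted p = 0.000296) and fell by 3.34 ± 0.20 at day 14 (adjusted p = 0.000217), with no overlap between untreated or day 3 tumour and the other arrays. Plod2, a collagen-modifying enzyme, was higher by 2.68 ± 0.38 in untreated tumour than in parotid (adjusted p = 0.00307). Epas1, the HIF-2 subunit abundant in endothelium, rose by 3.67 ± 0.47 at day 14 relative to untreated tumour (adjusted p = 0.00185).

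After 3 days of rapamycin, none of the 37 genes passed against untreated tumour, where 0.00611% of all genes, that is 1 gene, did. With 1 array at day 3 the test can find only large differences. At an unadjusted p below 0.05 in the same limma fit 9 members passed, and leaving out either untreated tumour also gave 0 members. Without a test, 32 members were lower and 5 higher, with a median of −0.39, against 0.019 over all genes. The lowest values were −1.45 for Car12, −1.32 for Car9, −1.30 for Eno1 (adjusted p = 0.289), −1.13 for Egln3, −1.12 for Pkm2 (adjusted p = 0.254) and for Ero1l, and −1.01 for Pgk1 (adjusted p = 0.346). The day 3 level lay between the means of untreated tumour and day 14 for 26 of the 37 (70.3%), against 60.9% of all genes tested.

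Between day 14 and day 3, 17 members passed, 4 higher and 13 lower, where 22.6% of all genes passed (11.6% higher and 11% lower). Enzymes with lower values at day 14 than at day 3 were Pfkl (−2.36 ± 0.27), Aldoc (−2.39 ± 0.27), Pgk1, Pgam1, Eno1 (−3.37 ± 0.31), Ldha, Ldhb and Slc16a3 (−2.52 ± 0.41), and Pfkm was higher (2.37 ± 0.40). Hypoxia genes with lower values were Car9, Ndrg1, Bnip3, Ero1l and Higd1a, and those with higher values were Vegfa, Car12 and the brighter probe of Pdk1. When either day 14 array was left out, 4 members passed, and with slide as a fixed block 9 did. Day 14 replicate 2 and the day 3 array shared slide 2, and all 17 kept their direction there.

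Between day 14 tumour and parotid 5 of the 37 passed (13.5%), a share near the 11.4% over all genes, with 4 higher at day 14 and 1 lower, against 6.31% and 5.08% of all genes. Slc16a3 (3.41 ± 0.34, adjusted p = 0.00685), Vegfa (2.78 ± 0.37, adjusted p = 0.0129), Adm (1.99 ± 0.46, adjusted p = 0.0440) and Pfkm (1.65 ± 0.33, adjusted p = 0.0313) were higher, and Eno1 (−1.16 ± 0.25, adjusted p = 0.0378) was lower. The median over the 37 was 0.20, against −0.015 over all genes, and 0.56 over the enzymes. All 5 kept their direction within each slide, where Slc16a3 differed by 3.94 on slide 1 and 2.87 on slide 2. The number that passed was 0 without either day 14 array, 15 without parotid replicate 1 and 10 without parotid replicate 2, so a member that did not pass is not shown to be alike in both tissues.

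Against submandibular gland, a single array on the other slide, 20 members differed in untreated tumour, 17 higher and 3 lower, where 29.5% of all genes passed (14.3% higher and 15.2% lower). Among the enzymes 11 rose and 2 fell, with a median of 1.38, or 0.98 with Gapdh at its bound, and among the hypoxia genes 6 rose and 1 fell, with a median of 0.32, against 0.046 over all genes. Slc16a3 was 6.202 ± 0.41 higher in untreated tumour (adjusted p = 0.000429), Ero1l 2.69 ± 0.37 (adjusted p = 0.00383) and Pfkl 2.35 ± 0.27 (adjusted p = 0.00212). Car9 was at least 17.9-fold higher (adjusted p = 0.00601). The 3 lower members were Hk1 (−1.66 ± 0.28, adjusted p = 0.00788), Pfkm (−1.83 ± 0.40, adjusted p = 0.0190) and Car12 (−1.94 ± 0.37, adjusted p = 0.0115). All 4 Hk1 probes that passed the filter had lower values in untreated tumour, with differences of −1.93 to −1.66. No slide held arrays of both groups, and with slide as a fixed block 12 members passed, all higher, so that the calls of Hk1, Pfkm and Car12 were lost. Without untreated tumour replicate 1 or 2, 10 and 12 members passed.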

How the data were processed

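Total RNA of 8 mouse salivary gland samples in 5 groups was labelled with a 1-colour kit, per the labels. Per the file headers, the deposited scanner files came from Feature Extraction (version 10.7.3.1) and hold a background-subtracted intensity and quality calls for each spot. The deposited table of log2 values (medians 5.52 to 5.57, r of 0.971 to 0.980 with the same arrays) was used as an alternative only, and how it was normalized is not given in the sources used here. Probe positions are on mm8.

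The intensity of each of 43379 non-control spots was put on the log2 scale, minus the 75th percentile of its array. Spots called non-uniform or population outliers were left out (791 non-uniform on the day 3 array, 5 to 51 elsewhere). No spot was saturated. Spots of a probe were averaged. Kept probes were well above background on each array of 1 group or more, and the brightest of 24279 kept probes stood for each of 16362 genes. Of 41174 probes, 23366 were named by RefSeq accession, 6739 by symbol, 2918 by synonym and 8151 kept the file's name. A mean per group was fitted over all arrays with limma 3.58.1 in R 4.3.3, with an intensity trend (3 residual and 3.27 prior degrees of freedom). P-values are two-sided and were adjusted after Benjamini and Hochberg over the whole table, separately for each comparison, with a threshold of 0.05. The number of arrays limits the precision. Depth in the sense of reads does not apply.

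On simulated data with 50 genes shifted per size, set as untreated tumour against parotid among 16362 genes, 10% of genes shifted by 1 on the log2 scale were called, 62% by 2, 72% by 3, 96% by 4 and 0.0433% of unshifted genes. There 16162 genes were not shifted, whereas 39% of all genes passed in the real comparison. The adjustment was therefore stricter in the simulation, and its shares do not carry over to the real data. The members, the lists of other genes and markers, and the tests were chosen with earlier results of these data known. Members past the threshold in either main comparison are given array by array, and of the other lists the 3 called genes with the largest difference are named. Alternatives were normexp (offset 50) as background correction, quantile normalization, scaling to probes detected on all arrays, the deposited values, other filters on dim probes, averaging over probes of a gene, a prior without trend, slide as a block (fixed, or random with an estimated correlation of 0.066), slide 1 alone, the arrays of only the 2 groups in question, a minimum of 2-fold, and each replicate left out in turn.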

Additional observations from a re-analysis of the deposited data

Results flagged for a closer look

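For 17 members the effect of 14 days of rapamycin differed from that of 3 days, by the limma test of day 14 minus day 3, which 22.6% of all genes passed. Without day 14 replicate 1, and likewise without replicate 2, 13 of the 17 calls were lost. Among the enzymes and transporters the log2 difference was −2.36 for Pfkl, −2.39 for Aldoc, −1.12 for Pgk1, −1.70 for Pgam1, −3.37 for Eno1, −1.02 for Ldha, −1.31 for Ldhb and −2.52 for Slc16a3, and 2.37 for Pfkm. Among the hypoxia genes it was −3.76 for Car9, −2.03 for Ndrg1, −1.02 for Bnip3, −1.40 for Ero1l and −1.08 for Higd1a, and 0.94 for Pdk1, 1.63 for Car12 and 1.76 for Vegfa. Adjusted p-values ran from 0.00213 for Eno1 to 0.0476 for Pdk1. Day 3 was 1 array, and the values at day 14 stand beside a sum of skeletal muscle markers of 10.41 and 10.44, against 0.62 at day 3. The part of cell makeup in these differences was not tested.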

How the results depend on the processing

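Every called difference of a member kept its sign under every alternative run, except Pdk1, whose difference became −0.39 between day 14 and untreated tumour and −0.0767 between day 14 and day 3 with the mean of a gene's probes. The construction shows why, since its 2 probes are opposed. The number of members called between untreated tumour and parotid was 17 to 23 over 13 alternatives (20 as reported) and 16 to 26 with 1 array left out. At day 14 against untreated tumour it was 20 to 28 over 13 alternatives (23 as reported) and 14 to 18 with 1 array left out, with 14 and 15 without day 14 replicates 1 and 2. At day 3 it was 0 throughout.

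Between day 14 and day 3 (17 as reported) it was 10 with no intensity trend, 9 with slide as a fixed block, 27 with only the arrays of the 2 groups, and 4 without either day 14 array. Between day 14 and parotid (5 as reported) it was 9 with quantile normalization, 2 with no intensity trend, 3 with slide as a fixed block, 8 on slide 1 alone, 2 with only the arrays of the 2 groups, and 0 to 15 with 1 array left out. Between untreated tumour and submandibular gland (20 as reported) it was 12 with slide as a fixed block and 10 to 12 with 1 array left out. The cause of these changes was not tested. A group left with 1 array was assumed to vary like the others, and on slide 1 alone all spread came from the 2 untreated tumours. Slide 1 alone could not be fitted for day 3 or submandibular gland, whose arrays were on slide 2.

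Over all genes, the count between untreated tumour and parotid (6389 as reported) was 4172 with normexp, 15379 with no filter on dim probes, and 3171 and 3034 without untreated tumour replicate 1 or 2. At day 14 against untreated tumour (7828) it was 5106 with normexp, 16706 with no filter, and 3718 to 4442 with 1 array left out. Between day 14 and day 3 (3702) it was 2277 with a filter on all 8 arrays, 8674 with only the arrays of the 2 groups, and 823 and 768 without day 14 replicate 1 or 2. Between day 14 and parotid (1864) it was 1094 with normexp, 690 with only the arrays of the 2 groups, 0 without either day 14 array, and 5888 and 4124 without parotid replicate 1 or 2. Against submandibular gland (4826) it was 3066 with normexp, 13422 with no filter, 3056 with a filter on all 8 arrays, 2269 with slide as a fixed block, 8145 with only the arrays of the 2 groups, and 2465 and 2479 without untreated tumour replicate 1 or 2. At day 3 (1) it was 0 to 25. With no filter on dim probes the median of all genes moved to −0.99 between untreated tumour and parotid and to 1.11 at day 14, and under the other scalings it stayed between −0.13 and 0.17 in those comparisons. No paired analysis was possible because the labels give a replicate number to only 1 array of the parotid and of the day 14 group, so that no groups share 2 numbers. Each group had at most 2 arrays, and Gapdh, Eno2 and Car9 were near background on some of them, which limits the size of their differences.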
